A study of Mus musculus with 5 samples.

Results

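Neuronal pentraxins and Elfn proteins are organisers of synapses, and their genes were followed in hair follicle stem cells of mice in which Polycomb repressive complex 1 (PRC1) had been deleted and of controls. The set was chosen by gene symbol from 5 listed names, with earlier results of these libraries known. Nptx1 and Elfn1 were listed because they had been among the genes called higher in the same comparison, and the others because they are their relatives. Among the 30840 features deposited, 4 of the 5 symbols were present (Nptx1, Nptx2, Nptxr and Elfn1), and Elfn2 is not analysed here. A filter on low counts left 3 of these 4 for testing (Nptx1, Nptxr and Elfn1).

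The tested mice, named PRC1 i2KO (3 samples), had the genotype K15-CrePR1:Ring1a-/-, Ring1bflox/flox, and the Control mice (2 samples) had Ring1a-/-, Ring1bflox/flox without the Cre transgene. Both groups were thus labelled as lacking Ring1a, and both had 1% RU-486 applied to the skin each day for 10 days from postnatal day 50. RU-486 activates the CrePR1 fusion in cells that use the keratin 15 promoter, so the groups differ by the transgene as well as by the deletion of Ring1b. Hair follicle stem cells were sorted from back skin at postnatal day 70 as EpCAM-positive, Sca1-negative, CD34-positive cells with high α6-integrin, with 50000 cells per sample. Whether each sample came from its own mouse is not stated in the labels, so p-values cover only the variation among the libraries at hand, part or all of which may be technical.

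PRC1 places ubiquitin on histone H2A through the catalytic subunits Ring1a and Ring1b and helps to keep developmental genes silent, many neuronal genes among them. Neuronal pentraxins are a small family related to the blood pentraxins. Nptx1 and Nptx2 are secreted, Nptxr is their membrane-anchored relative, and together they cluster AMPA-type glutamate receptors at excitatory synapses. Elfn1 and Elfn2 are membrane proteins with leucine-rich repeats and a fibronectin type III domain, which bind group III metabotropic glutamate receptors across the synapse. Their known roles are in neurons, and none is a textbook marker of the hair follicle bulge, the niche of these stem cells.

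The libraries held between 11626006 (Control 3) and 43307694 (PRC1 i2KO 2) counts. Mitochondrial ribosomal RNA took between 21.4% and 32.0% of the counts in PRC1 i2KO libraries and 16.7% and 22.6% in Control libraries. The 12 bulge markers were all detected and summed to between 6192 and 9100 TPM in PRC1 i2KO and to 9875 and 7507 TPM in Control. TPM is a share of all transcripts, scaled for length and to a fixed total, and CPM is a share of all counts in a normalised library. Rnf2, the gene of Ring1b, was at 39.9, 33.1 and 36.4 CPM in PRC1 i2KO and at 27.7 and 37.5 CPM in Control, while in TPM it was at 16.8, 12.9 and 11.7 in PRC1 i2KO and at 25.1 and 24.4 in Control. In TPM each PRC1 i2KO library thus lay below both Control libraries, while in CPM the groups overlapped. These gene-level values pool deleted and retained exons, and the count scale does not check the labels. The deletion itself was not tested. Ring1, the gene of Ring1a, was at 2.29, 1.58 and 3.67 CPM in PRC1 i2KO and at 1.87 and 5.0 CPM in Control, so low counts of that gene were listed in all 5 libraries.

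The promoter of Elfn1, a gene of large fold difference, is shown as the only match of the set in the promoter table. It is the 250 bases before the RefSeq start of Elfn1, at chr5:139907616-139907865 on the plus strand of GRCm38.p6, with each CG dinucleotide in capitals. The submitters' processing notes name mm39, so these coordinates belong to the RefSeq table and not to the counts.
Elfn1: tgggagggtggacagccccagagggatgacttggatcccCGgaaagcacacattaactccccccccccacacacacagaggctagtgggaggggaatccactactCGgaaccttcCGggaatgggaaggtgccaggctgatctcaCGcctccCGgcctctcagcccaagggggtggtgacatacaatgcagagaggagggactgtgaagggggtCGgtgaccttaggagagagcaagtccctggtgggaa
This window held 6 CG dinucleotides, the letters CG read on either strand, and 60.8% of its bases were G or C. Across 32851 promoter windows of the same length the medians were 6 CG dinucleotides and 52.4%, and 50.4% of windows held at least as many CG. By its number of CG dinucleotides the Elfn1 window thus lay at the middle of all promoters. Of the 4 genes, 1 matched.

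Nptx1 and Elfn1 transcripts were several-fold more abundant in PRC1 i2KO stem cells than in Control cells, Nptxr lay higher with a large spread between the Control libraries, and Nptx2 was found in a lone library. The fold was 6.81 for Nptx1, a secreted pentraxin, and 44.5 for Elfn1, a membrane protein. Of the 3 tested genes, 2 were called higher by edgeR (adjusted p under 0.05), where 0.126% of all 22181 genes were. DESeq2 called all 3 higher, where it called 3.57% of genes. In all 3, each PRC1 i2KO library exceeded both Control libraries, an order shown by 14.6% of all genes. Because the set was chosen on this contrast, these counts describe it and nothing is read from them. In bulk samples more cells expressing a gene and more RNA per cell cannot be told apart.

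**Figure D1:**
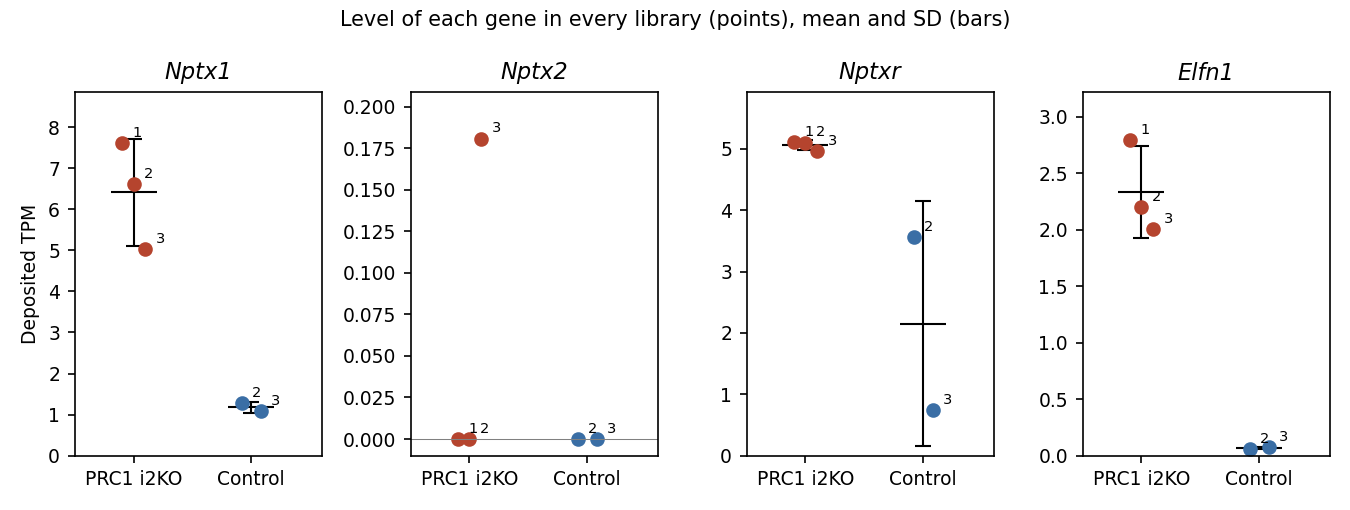
Deposited TPM (vertical axis, linear, a scale for each gene) of Nptx1, Nptx2, Nptxr and Elfn1 in the PRC1 i2KO and Control libraries. Each point is a library with its number, and bars are the mean and SD (3 PRC1 i2KO and 2 Control libraries; none drawn for Nptx2, which had 0 in 4 libraries). Nptx1 sits between 5.02 and 7.60 TPM in PRC1 i2KO and at 1.27 and 1.08 TPM in Control, while Control 2 and 3 are far apart for Nptxr.

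Nptx1 (ENSMUSG00000025582.4) is on chromosome 11, and the GENCODE M21 annotation gives it 1 transcript of 5 exons. It had 1125, 1552 and 1007 counts in PRC1 i2KO 1, 2 and 3, against 268 and 78 counts in Control 2 and 3. In TPM these were 7.60, 6.61 and 5.02 in PRC1 i2KO, against 1.27 and 1.08 in Control. The Control libraries lay close together, and the lowest PRC1 i2KO library was well above them. Scaled by library size, Nptx1 averaged 39.5 ± 10.6 CPM in PRC1 i2KO (SD, n = 3) and 5.81 ± 0.528 CPM in Control (SD, n = 2). The log2 fold change was 2.77 ± 0.34 (SE; edgeR adjusted p = 0.0252), the value for which the gene was listed. Among protein-coding genes Nptx1 ranked at percentiles 65.4, 57.2 and 55.6 of TPM in PRC1 i2KO and at 34.2 and 35.5 in Control, so it was a gene of low level in Control and of middling level in PRC1 i2KO. Its call was lost without Control 2 (adjusted p = 0.354), Control 3 (0.263), PRC1 i2KO 1 (0.0913) or PRC1 i2KO 3 (0.0573), by edgeR, with log2 fold changes between 2.53 and 2.90.

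Nptxr (ENSMUSG00000022421.19), the membrane-anchored pentraxin on chromosome 15, had 725, 1148 and 955 counts in PRC1 i2KO 1, 2 and 3, against 718 and 52 counts in Control 2 and 3. In TPM it was at 5.11, 5.10 and 4.97 in PRC1 i2KO and at 3.56 and 0.744 in Control. On this scale the PRC1 i2KO libraries were nearly equal, with a largest over smallest ratio of 1.03, whereas the Control libraries differed severalfold. In CPM the PRC1 i2KO libraries spread more, at 33.2, 25.9 and 30.2 in PRC1 i2KO 1, 2 and 3. In CPM the Control values were 14.6 (95% counting interval 13.5 to 15.7) and 4.13 (3.08 to 5.41), so counting error alone does not span their distance. Nptxr averaged 29.8 ± 3.68 CPM in PRC1 i2KO (SD, n = 3) and 9.35 ± 7.39 CPM in Control (SD, n = 2). Its log2 fold change was 1.64 ± 0.49 and did not pass (edgeR adjusted p = 0.262). DESeq2 called it (1.67, adjusted p = 0.0191). Without Control 3 the edgeR log2 fold change was 1.04 (adjusted p = 0.550), and without Control 2 it was 2.85 (0.271).

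Nptx2 (ENSMUSG00000059991.7), a secreted pentraxin known in neurons as an activity-induced gene, had 17 counts in PRC1 i2KO 3 and 0 counts in PRC1 i2KO 1 and 2 and in both Control libraries. The level in PRC1 i2KO 3 was 0.538 CPM (95% counting interval 0.313 to 0.861), or 0.181 TPM. A count of 0 allows up to 0.137 and 0.0677 CPM in PRC1 i2KO 1 and 2, and up to 0.0609 and 0.238 CPM in Control 2 and 3, by the limit of 3 counts. The value of PRC1 i2KO 3 was thus above what the other libraries of either group allow, and it rests on that library alone. With no filter on low counts edgeR gave Nptx2 an adjusted p of 0.610.

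Elfn1 (ENSMUSG00000048988.8) is on chromosome 5, and its coding sequence lies in 1 exon of a 2-exon transcript. It had 300, 375 and 292 counts in PRC1 i2KO 1, 2 and 3, against 9 and 4 counts in Control 2 and 3. In TPM it was at 2.79, 2.20 and 2.00 in PRC1 i2KO, against 0.0600 and 0.0762 in Control. The groups stood far apart, with Control near the limit of detection. In CPM the values were 13.7, 8.46 and 9.24 in PRC1 i2KO, against 0.183 (95% counting interval 0.0836 to 0.347) and 0.317 (0.0865 to 0.813) in Control. The log2 fold change was 5.48 ± 0.68 (SE; edgeR adjusted p = 0.0253), again the value for which it was listed, and the fold rests on 13 Control counts. Elfn1 ranked at percentiles 46.8, 40.2 and 40.4 of TPM among protein-coding genes in PRC1 i2KO and at 13.1 and 15.3 in Control. Without Control 2 the edgeR adjusted p was 0.354, without Control 3 it was 0.186, without PRC1 i2KO 1 it was 0.114 and without PRC1 i2KO 3 it was 0.0852, with log2 fold changes between 5.03 and 5.82.

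**Figure D2:**
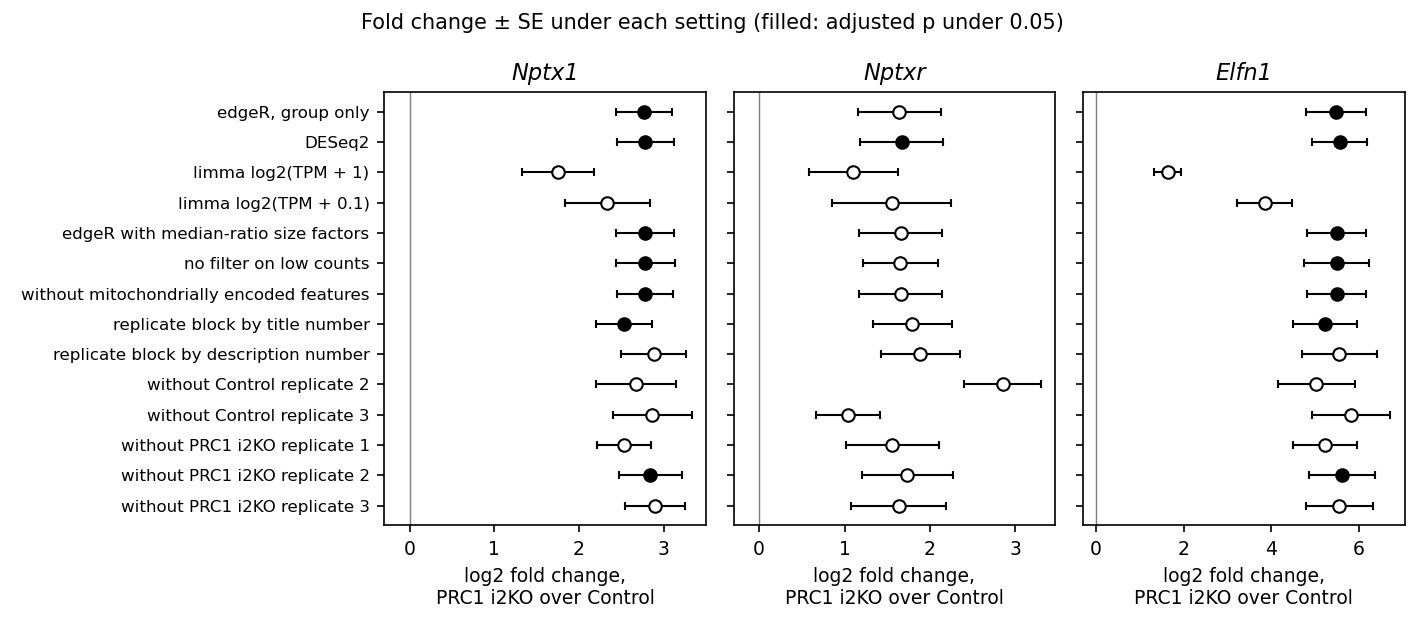
Log2 fold change ± SE of Nptx1, Nptxr and Elfn1 (horizontal axes, PRC1 i2KO over Control, a scale for each gene) under the edgeR fit and each alternative (rows). Filled points have an adjusted p under 0.05. All points lie above 0, and those of Nptxr move between 1.04 and 2.85 with the Control library left out.

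The order of levels, compared per length in TPM, differed between the groups. In PRC1 i2KO, Nptx1 averaged 6.41 ± 1.30 TPM, Nptxr 5.06 ± 0.0804 TPM, Elfn1 2.33 ± 0.409 TPM and Nptx2 was listed at 0 in 2 of 3 libraries (SD, n = 3). Nptx1 was above Nptxr in each of these libraries, with a ratio of 1.49, 1.30 and 1.01 in PRC1 i2KO 1, 2 and 3, so they were almost level in PRC1 i2KO 3. Elfn1 lay below both in each of these libraries. In Control, Nptxr averaged 2.15 ± 1.99 TPM and Nptx1 1.18 ± 0.137 TPM (SD, n = 2), and their order was reversed between the Control libraries, with an Nptx1 to Nptxr ratio of 0.357 in Control 2 and 1.45 in Control 3. Elfn1 was lowest of the 3 in both, at 0.0681 ± 0.0115 TPM. The Nptx1 to Elfn1 ratio was 2.73, 3.0 and 2.50 in PRC1 i2KO 1, 2 and 3 and 21.2 and 14.2 in Control 2 and 3.

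Dividing count by TPM gives a relative transcript length for each gene, which barely moved between libraries. Relative to the Control mean, that length was 0.988, 0.996 and 0.998 for Nptx1 in PRC1 i2KO 1, 2 and 3, and for Nptxr it was likewise 0.988, 0.996 and 0.998. For Elfn1 the Control counts were too few for a value, and the PRC1 i2KO libraries lay between 0.995 and 1.00 of their own mean. In Nptx1, with 1 annotated transcript, no change of length was possible in that annotation.

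The genes beside the members were next set against them. Nptx1 lies between Endov, a ribonuclease for inosine-containing RNA, and Rptor, a subunit of mTORC1, with log2 fold changes of -0.14 ± 0.30 and 0.29 ± 0.27 (edgeR adjusted p = 0.917 and 0.760). Nptxr lies between the dynein light chain gene Dnal4 (-0.71 ± 0.49, adjusted p = 0.659) and Cbx6 (0.07 ± 0.33, 0.965), whose product is itself a PRC1 subunit. Cbx6 was at 2.10, 3.60 and 3.89 TPM in PRC1 i2KO, against 3.59 and 3.69 TPM in Control, so its groups overlapped where those of Nptxr did not. In the annotation Nptxr overlaps Npcd, a gene on the same strand that spans Cbx6 and Nptxr and is not analysed here, so the Nptxr values are uncertain to the extent that reads of both were divided.

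Elfn1 lies between the proteasome assembly gene Psmg3 (log2 fold change 0.38 ± 0.60, edgeR adjusted p = 0.874) and the spindle checkpoint gene Mad1l1 (1.02 ± 0.52, 0.524). The pseudogene Gm43704 overlaps Elfn1 on the other strand and was between 0 and 0.537 TPM in PRC1 i2KO and at 0.937 and 0 TPM in Control. Gm43704 was below Elfn1 in each PRC1 i2KO library and in Control 3, and above it in Control 2, where Elfn1 was at 0.0600 TPM. Any effect of this overlap on the Elfn1 counts was not tested. Nptx2 lies between Bri3 (-0.05 ± 0.33, edgeR adjusted p = 0.975) and Tmem130, which was below the filter at no more than 0.116 TPM in any library. Elfn2 itself is not analysed here, but of its neighbours Cyth4, a cytohesin gene, was at 0.709, 1.94 and 1.99 TPM in PRC1 i2KO, against 5.72 and 5.50 TPM in Control (-1.67 ± 0.69, edgeR adjusted p = 0.427). Mfng, a Fringe glycosyltransferase gene, was below the filter at no more than 0.683 TPM in any library. Of the 8 tested neighbours 0 were called by edgeR, 0 by DESeq2 and 1 (Cyth4) had an unadjusted p under 0.05 by edgeR, where 7.43% of all genes were higher and 3.51% lower at that p. The differences between members and neighbours were not tested.

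**Figure D3:**
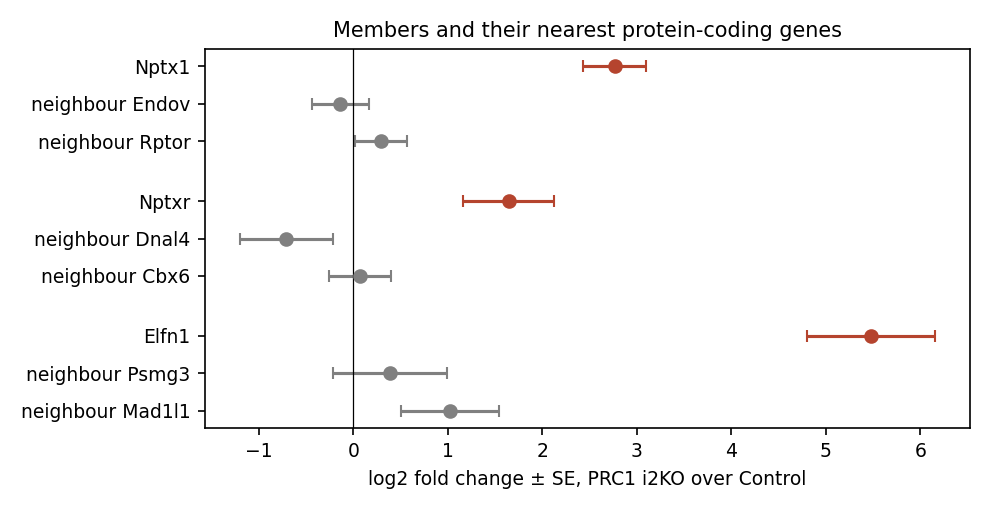
Log2 fold change ± SE (horizontal axis, PRC1 i2KO over Control, edgeR) of Nptx1, Nptxr and Elfn1 in red and of the nearest tested protein-coding gene on each side in grey. The neighbours sit between -0.71 and 1.02, and Elfn1 at 5.48 lies farthest from its own.

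The partners of these proteins were mostly faint, and edgeR called 0 of them. Of the 14 listed pentraxin partners and processing genes, 8 were in the table and 7 were tested, with 0 called by edgeR (unadjusted, 1 higher and 0 lower; DESeq2, 1 and 0) and a median log2 fold change of -0.35, beside 0.01 over all genes. Over all genes 7.43% were higher and 3.51% lower at an unadjusted p under 0.05 by edgeR. DESeq2 called 3.57% higher and 0.786% lower, and these shares apply to each list below. Subunits of AMPA receptors, which pentraxins cluster, were faint. Gria3 had 10, 10 and 40 counts in PRC1 i2KO, against 140 and 4 counts in Control, and did not exceed 1.22 TPM in any library. Gria2 was at 0.248, 0.234 and 0.481 TPM in PRC1 i2KO and at 0.551 and 0.426 TPM in Control (-0.35 ± 0.78, edgeR adjusted p = 0.920). Adam17, the protease that sheds Nptxr, was at 16.8, 16.3 and 15.1 TPM in PRC1 i2KO and at 15.7 and 13.3 TPM in Control (-0.13 ± 0.23, adjusted p = 0.888).

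C1ql1, a secreted C1q-like synaptic ligand, had 80, 86 and 106 counts in PRC1 i2KO, against 0 counts in both Control libraries. Its 2.99 ± 0.920 CPM in PRC1 i2KO (SD, n = 3) was 61.6-fold the level that 3 counts over both Control libraries would give. This bound takes the PRC1 i2KO mean as fixed, and C1ql1 did not pass (edgeR adjusted p = 0.0867). Its relative C1ql3 showed the other sign, with 1.11, 2.28 and 1.07 TPM in PRC1 i2KO, against 5.54 and 1.63 TPM in Control (-0.91 ± 0.58, adjusted p = 0.624). The C1ql3 groups overlapped.

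The list of Elfn partners held the metabotropic glutamate receptors and the catalytic subunits of protein phosphatase 1, which Elfn proteins bind inside the cell. Of 11 listed genes 10 were in the table and 7 were tested, with 0 called by edgeR (unadjusted, 2 higher and 0 lower; DESeq2, 1 and 0) and a median of 0.44. Among the receptors Grm4, of group III, had the highest mean TPM over the 5 libraries. It had 413, 495 and 174 counts in PRC1 i2KO, against 29 and 0 counts in Control, or 4.06, 3.05 and 1.17 TPM against 0.573 and 0 TPM. Every PRC1 i2KO library was thus above both Control libraries, and the log2 fold change of 5.02 ± 1.04 did not pass (edgeR adjusted p = 0.149). Grm5, a group I receptor, was at 0.264, 0.565 and 1.23 TPM in PRC1 i2KO and at 1.27 and 0.704 TPM in Control, above Grm4 in PRC1 i2KO 3 and in both Control libraries. The other group III receptors were fainter: Grm6 did not exceed 0.177 TPM in any library, Grm7 had 1 count in PRC1 i2KO 2 and 0 elsewhere, and Grm8 had 26, 18 and 0 counts in PRC1 i2KO and 0 counts in both Control libraries. Ppp1ca, Ppp1cb and Ppp1cc lay between 25.3 and 94.4 TPM in every library of both groups, with log2 fold changes between -0.08 and 0.44.

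Other synapse-organising families had 0 edgeR calls as well. Of 25 listed leucine-rich repeat organisers, relatives of Elfn1 in structure or role, 21 were in the table and 19 were tested, with 0 called by edgeR (unadjusted, 4 higher and 2 lower). DESeq2 called 2 of them higher and 1 lower, where it called 3.57% and 0.786% of all genes. Their median log2 fold change was 0.48. In 7 of the 19 the PRC1 i2KO libraries all exceeded Control and in 3 they all stayed under it, against 14.6% and 15.3% of all genes. Flrt3 (40.2, 51.6 and 46.0 TPM in PRC1 i2KO, against 47.2 and 39.2 TPM in Control) and Flrt2 (15.9, 30.6 and 12.4 TPM, against 69.2 and 27.7 TPM) had the highest mean TPM over the 5 libraries in this list, with edgeR adjusted p of 0.449 and 0.353. The neurotrophin receptor gene Ntrk2 was at 8.50, 14.2 and 7.47 TPM in PRC1 i2KO, against 3.44 and 2.89 TPM in Control (log2 fold change 2.14 ± 0.36, adjusted p = 0.0867). Flrt1, named after its values were seen, was at 3.16, 4.16 and 2.21 TPM in PRC1 i2KO, against 0.696 and 0.232 TPM in Control, with the smallest adjusted p of the list (3.11 ± 0.48, edgeR adjusted p = 0.0618). Lrrtm2, likewise named after its values were seen, went the other way (-1.54 ± 0.42, edgeR adjusted p = 0.235). It was at 1.44, 0.774 and 1.19 TPM in PRC1 i2KO, against 5.56 and 3.03 TPM in Control.

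Lingo1 exceeded Flrt2 in PRC1 i2KO 1 and 3 and in Control 3. For Lingo1 the scales disagreed, with 16.9, 17.5 and 16.7 TPM in PRC1 i2KO below 35.4 and 36.2 TPM in Control, but a count log2 fold change of 1.40 ± 0.51 (edgeR adjusted p = 0.355). The wider group of 40 organisers and adhesion genes had 37 in the table and 33 tested, with a median of 0.01 and 0 called by edgeR (unadjusted, 4 higher and 0 lower; DESeq2, 1 and 0). Its most abundant gene, the teneurin Tenm2, was at 221, 323 and 279 TPM in PRC1 i2KO and at 509 and 423 TPM in Control (-0.15 ± 0.17, adjusted p = 0.804), so here too the groups stood farther apart in TPM than in counts. Clstn1, Ptprf and Ptprs followed, with log2 fold changes between -0.27 and 0.07. The other genes with a pentraxin domain were Adgrg6, Svep1 and Crp, 3 of 8 listed, with a median of -0.34 and 0 called by edgeR, by DESeq2 or at an unadjusted p under 0.05. Adgrg6, an adhesion receptor, was at 33.4, 36.8 and 37.5 TPM in PRC1 i2KO and at 56.0 and 45.2 TPM in Control (-0.18 ± 0.16, edgeR adjusted p = 0.755). Svep1 and Crp did not exceed 1.89 TPM in any library.

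**Figure D4:**
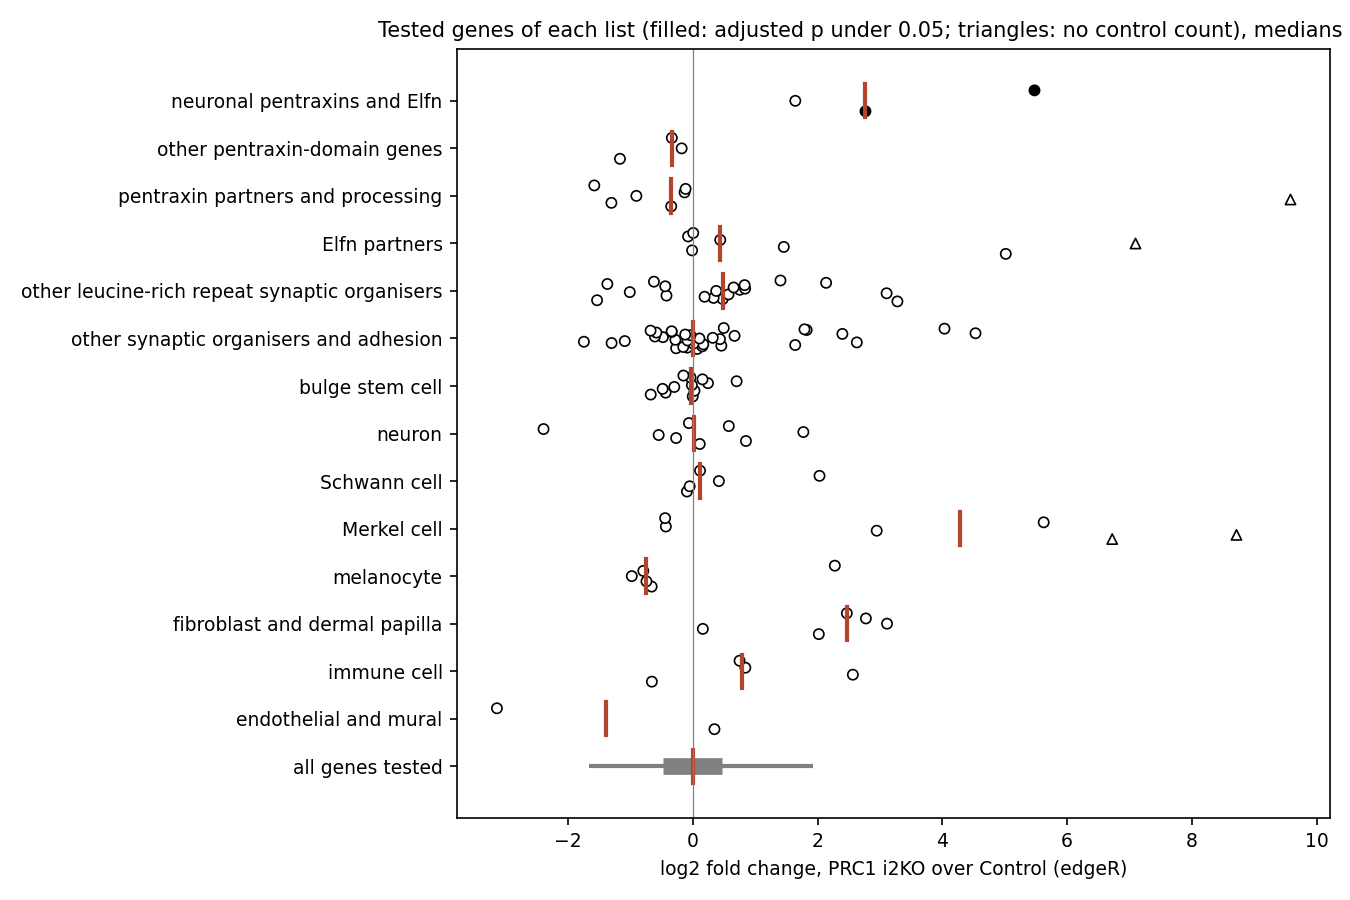
Log2 fold change (horizontal axis, PRC1 i2KO over Control, edgeR) of the tested genes of each list (rows), with each list's median as a red line. Filled symbols have an adjusted p under 0.05, triangles had no Control count and so have a fold that depends on the prior count, and the grey bar spans the 5th to 95th percentile of all genes tested (thick part, the middle 50%). The only filled symbols of these lists are Nptx1 and Elfn1.

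Markers of other cell types were read beside these genes. The neuron list, the cell type in which these genes are best known, had 16 of 19 markers in the table, summing to 4.56, 16.7 and 9.52 TPM in PRC1 i2KO and to 7.25 and 6.51 TPM in Control. Of these 14 stayed below 1 TPM in every library, and Map2 made up most of the sum. Snap25 had at most 4 counts, Gap43 at most 3 counts and Rbfox3 at most 2 counts in any library. The 8 tested neuron markers had a median log2 fold change of 0.02 and 0 were called by edgeR (unadjusted, 0 higher and 1 lower; DESeq2, 0 and 0). Others of the list were read in single libraries or in all: Map2 had 188, 1168 and 701 counts in PRC1 i2KO and 522 and 133 in Control, Syp 29, 10 and 5 counts in PRC1 i2KO and 135 and 40 in Control, Syn1 95 counts in PRC1 i2KO 2 and 6 in Control 3, and Slc17a7 37 counts in PRC1 i2KO 1. The part of neurons in the values of the members was not tested.

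Merkel cell and fibroblast markers summed to more in each PRC1 i2KO library than in Control, the direction of Nptx1 and Elfn1. The 9 Merkel cell markers in the table summed to 4.85, 5.85 and 9.70 TPM in PRC1 i2KO and to 2.80 and 2.10 TPM in Control. Their median was 4.29 over 6 tested genes, or 3.02 with genes of few Control counts set to their bound or ratio, and 0 were called by edgeR (unadjusted, 4 higher and 0 lower; DESeq2, 3 and 0). Of all genes, 7.43% were higher at that unadjusted p and 3.57% were called higher by DESeq2. Piezo2, a mechanosensitive channel, was at 2.01, 3.15 and 4.96 TPM in PRC1 i2KO, against 0.562 and 0.226 TPM in Control (2.95 ± 0.44, edgeR adjusted p = 0.0554), while Krt20 had 3 counts in PRC1 i2KO 2 and 0 in the other libraries. Isl1 had 19, 38 and 101 counts in PRC1 i2KO and 0 counts in both Control libraries (edgeR adjusted p = 0.177). Krt8 had 73, 47 and 60 counts in PRC1 i2KO and 1 count in each Control library (0.177). Sox2 had 13, 13 and 11 counts in PRC1 i2KO and 0 counts in both Control libraries (0.290). Rab3c was at 0.249, 0.354 and 0.545 TPM in PRC1 i2KO, against 0.934 and 0.819 TPM in Control (-0.44 ± 0.58), and Chga had a log2 fold change of -0.43 ± 1.12 (edgeR adjusted p = 0.840 and 0.932). The 9 fibroblast and dermal papilla markers summed to 17.2, 13.3 and 10.2 TPM in PRC1 i2KO and to 5.70 and 6.39 TPM in Control, with a median of 2.47 over 5 tested genes and 0 called by edgeR (unadjusted, 3 higher and 0 lower; DESeq2, 2 and 0). Pdgfra was at 4.26, 4.36 and 2.23 TPM in PRC1 i2KO, against 0.627 and 0.315 TPM in Control (3.11 ± 0.45, edgeR adjusted p = 0.0502), and Col3a1 had 12 counts in PRC1 i2KO 2 and 0 elsewhere. Dpp4 gave 8.40 TPM of the sum in PRC1 i2KO 1, with 0.627 and 1.16 TPM in PRC1 i2KO 2 and 3 and 0.193 and 0.0830 TPM in Control. Col1a1 was at 2.50, 3.25 and 1.09 TPM in PRC1 i2KO and at 0.700 and 1.25 TPM in Control (2.02 ± 0.53, edgeR adjusted p = 0.215). Its groups overlapped in TPM. Col1a2 was at 2.02, 4.83 and 3.71 TPM in PRC1 i2KO and at 4.01 and 4.67 TPM in Control (0.16 ± 0.32, edgeR adjusted p = 0.910). EpCAM, an epithelial protein, was among the sort markers, and the purity of the sort was not tested. The part of Merkel cells and fibroblasts in the values of Nptx1 and Elfn1 was not tested.

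The other marker lists had 0 calls by edgeR and by DESeq2. Schwann cell markers summed to between 12.0 and 15.4 TPM in PRC1 i2KO and to 19.6 and 12.4 TPM in Control, with a median of 0.12 over 5 tested genes and 0 at an unadjusted p under 0.05. Melanocyte markers summed to between 20.8 and 38.1 TPM in PRC1 i2KO and to 71.2 and 44.5 TPM in Control, nearly all of it Mitf (median -0.74, 5 tested, unadjusted 0 higher and 1 lower). Immune cell markers summed to between 3.70 and 6.01 TPM in PRC1 i2KO and to 1.81 and 4.24 TPM in Control (median 0.79, 4 tested, unadjusted 0 and 0). Endothelial and mural markers, mostly Pecam1, summed to between 5.60 and 9.99 TPM in PRC1 i2KO and to 11.3 and 5.42 TPM in Control (median -1.40, 2 tested, unadjusted 0 higher and 1 lower). The 12 bulge markers had a median of -0.03 (unadjusted, 1 higher and 3 lower, where 7.43% and 3.51% of all genes were). The 3 lower were Cd34 (-0.68 ± 0.27), Lgr5 (-0.44 ± 0.16) and Lhx2 (-0.48 ± 0.17), with edgeR adjusted p between 0.349 and 0.422. The 1 higher was Krt14 (0.70 ± 0.19, edgeR adjusted p = 0.240).

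Genes with the most similar profile over the 5 libraries were looked up for Nptx1 and Elfn1. Likeness was the root mean square difference of log2 CPM, each gene centred on its own mean. Nearest to Nptx1 stood Ggt6, of the gamma-glutamyltransferase family, at a distance of 0.11, with 10.3, 7.47 and 7.18 CPM in PRC1 i2KO, against 1.20 and 1.51 CPM in Control. Next came Sox2 (0.15), a transcription factor, and Hba-a2 (0.16), an alpha globin, both with no Control count and at most 0.596 CPM in any library, so that their likeness rests on the prior count. Nearest to Elfn1 stood Dchs1, a large protocadherin, at 0.24, with 9.62, 4.26 and 4.93 CPM in PRC1 i2KO, against 0.0406 and 0.159 CPM in Control. It was followed by 1700001O22Rik (0.24) and by Mecom (0.32), a zinc-finger transcription factor with 11.7, 6.99 and 10.6 CPM in PRC1 i2KO, against 0.122 and 0.159 CPM in Control. A profile like that of Nptx1 or Elfn1 fixes the direction between the groups, so the direction of these 6 genes is no finding.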

How the data were processed

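Expected counts and TPM values, per gene and library, stood in 1 table deposited by the authors. Per the submitters' processing notes, the tools were DESeq2 1.38.2, RSEM 1.3.3 and STAR 2.7.9a and the build was mm39, with no roles stated. Per the labels' protocols, libraries were made from polyadenylated RNA (50 ng of total RNA). Whether reads were counted by strand is not given in the sources. The deposited expected counts (60.4% not whole) were rounded. The TPM values deposited by the authors were used for levels between genes.

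edgeR 4.0.16 in R 4.3.3 (filterByExpr, TMM, quasi-likelihood F test, group as only term) was fitted to all genes, with Benjamini-Hochberg adjustment over 22181 genes. The ± beside a log2 fold change is an SE derived from the F statistic. Code was tested on simulated data. Alternatives used DESeq2 1.42.0, limma 3.58.1 on log2(TPM + 1) and log2(TPM + 0.1), other scalings and filters, replicate blocks and each library left out. Implied length is count over TPM, scaled by each library's median over genes of at least 100 counts. GENCODE M21 (GRCm38) gave transcripts and neighbours, and RefSeq (GRCm38.p6) the promoter. Counting intervals (95%, Poisson) and the floor of 3 counts cover counting error only, and 1 count stood for between 0.0203 and 0.0793 CPM. On the log2(TPM + 1) scale the median of all genes shifted by -0.19.

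The genes and 14 lists were chosen with earlier results of these data known. Named were all members, up to 4 most abundant genes per list and any called, the 3 most alike genes of Nptx1 and Elfn1, and the neighbours of each member, besides genes picked out from the lists after their values were seen.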

Additional observations from a re-analysis of the deposited data

How the results depend on the processing

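Nptx1, Nptxr and Elfn1 kept a positive log2 fold change under each of 13 alternatives. Those of Nptx1 and Elfn1 lost their call with limma on log2(TPM + 1) (1.75 and 1.63), limma on log2(TPM + 0.1) (2.33 and 3.84) and a replicate block by the numbers of the sample descriptions (2.88 and 5.55). With each library left out in turn they lay between 2.53 and 2.90 for Nptx1, 5.03 and 5.82 for Elfn1 and 1.04 and 2.85 for Nptxr. A fit with a lone Control library assumes that it varies like the other group. Nptxr was called by DESeq2 alone (1.67). The number of genes called higher was 754 with DESeq2, 2 and 7 with both limma fits, 140 with no filter, 140 with a replicate block by title and 10 with a replicate block by description, against 28, and between 4 and 39 with a library left out. Genes called lower numbered 166, 1, 5, 12, 25 and 0 in the same order, against 0 (778 at an unadjusted p under 0.05 by edgeR), and between 0 and 4 with a library left out. Title numbers and description numbers pair different libraries. Deviations from the group means correlated by 0.06 and 0.04 in the pairs by title and by -0.02 and -0.06 in those by description. With 2 Control libraries their deviations mirror each other, so these values cannot decide whether samples were paired. The block by title kept the calls of Nptx1 (2.53) and Elfn1 (5.22). PRC1 i2KO 1 has no Control of its title number, so in that fit it does not inform the fold. By description PRC1 i2KO 3 has none, and either block leaves little to estimate the spread between libraries. Nptx2 did not pass the filter and has no value in most fits. The Elfn1 fold is limited by depth, as it rests on 13 Control counts.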
